A study of Mus musculus with 22 samples.

Results

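The 9 genes described here make heme or handle the iron and the breakdown products that belong to it: Alas2, Alad, Uros, Urod, Cpox, Ppox and Fech, which encode enzymes of heme synthesis, Slc25a37, which encodes the mitochondrial iron importer mitoferrin-1, and Blvrb, which encodes a biliverdin reductase. They were named by symbol, with earlier results of these data in view, among 24828 gene symbols that appear in any table, and each of the 9 has 1 row in every megakaryocyte table and 1 row with an adjusted p in the platelet table. The genes were chosen by name with the deposited log2 fold changes and adjusted p-values of the platelet and megakaryocyte comparisons known, so the values of the 9 genes and the authors' p-values for them are given as a description.

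The study measured RNA of adult mice in which Cre under the platelet factor 4 (Pf4) promoter deletes floxed Srsf3, a splicing factor, in the megakaryocyte lineage (genotype Pf4Cre-Srsf3fl/fl, called the knockout here). Megakaryocytes, the marrow cells from which platelets form, carried CD41 and were separated by ploidy into 8N cells and cells with at least 16N (16N-plus), with 3 Cre-negative control and 3 knockout samples at each ploidy, all of strain C57BL/6. Washed platelets came from 3 wild type, 3 Cre-negative control and 4 knockout samples. Each megakaryocyte sample was a pool of sorted cells of 1 ploidy class. Only the knockouts carry the transgene, so effects of Cre and of Srsf3 deletion cannot be told apart, and the labels do not say whether controls carry floxed alleles.

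The values are the authors' comparisons and not values per library, so the spread over samples enters only through each standard error (SE). Platelet SEs are the authors' own, and megakaryocyte SEs were computed from the authors' log2 fold change and F. The deposited tables do not say which group is the numerator. Here a positive sign is taken to mean higher in the knockout or higher in 16N-plus cells, the direction in which Tubb1, the platelet beta tubulin, is lower in the knockout (log2 fold change of -3.32 in 16N-plus megakaryocytes and -5.59 in platelets per the authors' deposited tables). If that reading were turned for the platelet table, every platelet sign below would turn with it. Srsf3 itself was not called in 8N (0.33, SE 0.21) or 16N-plus megakaryocytes (0.43, SE 0.27) per the authors' deposited tables, and a value per gene need not follow the deleted exons. No platelet row was used for Srsf3. All 13 platelet and megakaryocyte markers checked have a row in the megakaryocyte tables, and 12 of the 13 were called higher with ploidy in controls.

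Heme is built from glycine and succinyl-CoA in a chain of enzymatic steps that begins and ends in the mitochondrion and passes through the cytosol in between. ALAS2 is the red cell form of the first enzyme and ALAS1 the form used by other cells, and FECH closes the chain by inserting iron into protoporphyrin. Mitoferrin-1 brings that iron into the mitochondria of developing red cells. Megakaryocytes and red cells descend from a common progenitor, reticulocytes still carry these mRNAs, and platelets need heme for the cytochromes of the respiratory chain and for enzymes of thromboxane synthesis.

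Upstream sequences are shown for Alas2 and Cpox, mitochondrial enzymes whose window holds a GATAA match, and for Alas1, the paralogue of Alas2 that differed less. Each is the 250 bases before an annotated RefSeq start (build GRCm38.p6), read 5′ to 3′ on the gene's strand, at chrX:150547167-150547416 on the plus strand, chr16:58669958-58670207 on the plus strand and chr9:106247955-106248204 on the minus strand. Capitals mark GATAA, the core bound by GATA factors, and CCNCNCCC, a CACCC-type box bound by KLF factors, on either strand.
Alas2: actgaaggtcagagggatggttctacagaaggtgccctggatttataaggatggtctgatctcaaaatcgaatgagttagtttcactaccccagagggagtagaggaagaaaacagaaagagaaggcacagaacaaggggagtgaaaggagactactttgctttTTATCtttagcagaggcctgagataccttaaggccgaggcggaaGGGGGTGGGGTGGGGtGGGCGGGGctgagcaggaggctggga
Cpox: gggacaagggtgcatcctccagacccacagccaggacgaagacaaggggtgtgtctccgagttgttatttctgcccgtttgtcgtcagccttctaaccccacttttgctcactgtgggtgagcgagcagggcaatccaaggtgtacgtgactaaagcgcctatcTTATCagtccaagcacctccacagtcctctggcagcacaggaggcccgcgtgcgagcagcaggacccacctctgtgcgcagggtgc
Alas1: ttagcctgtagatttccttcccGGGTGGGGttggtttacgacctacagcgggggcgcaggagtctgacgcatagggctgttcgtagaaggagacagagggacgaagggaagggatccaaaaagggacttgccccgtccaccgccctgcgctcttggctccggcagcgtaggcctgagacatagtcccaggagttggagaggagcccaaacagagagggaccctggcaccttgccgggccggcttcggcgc
GATAA was searched on both strands and was present at -86 from the start in Alas2 and at -86 in Cpox, both times as TTATC on the strand shown, and it was absent from the Alas1 window shown. The box CCNCNCCC occurred 4 times in Alas2, with overlaps, its first bases lying between -42 and -26. It occurred 1 time in the Alas1 window shown, at -228, and 0 times in Cpox. Another Alas1 window, not shown, held 2 of these boxes and 0 GATAA. Of the 9 genes 7 had an upstream window in the RefSeq table, with 10 windows in all. GATAA was in 3 of these 10 windows (Alas2, Cpox and 1 of those of Uros), against 22.6% of 32851 windows of the same length. CCNCNCCC was in 5 of 10, against 45.9%, and TGANTCA, the NF-E2 and AP-1 type site, was in 0 of 10, against 6.75%. These are matches of letters and not measured binding.

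In platelets all 9 genes were higher in the knockout. Their median log2 fold change was 4.40, against 0.02 over all 12611 genes tested, and they ranged from 2.37 to 6.57 per the authors' deposited table. The authors' DESeq2 adjusted p was under 0.05 for 9 of 9, where 53.2% of all genes tested were called, 28.2% higher and 25% lower, and 57% had an unadjusted p under 0.05. Since the genes were chosen with this comparison known, nothing is read from that count. In platelet preparations more red cell RNA and more of this RNA per platelet cannot be told apart.

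The first and the last enzyme of the chain had the largest values among the 7 enzymes, but were not separated from Ppox. The 95% interval of Ppox, 3.15 to 6.82, held both values. Alas2 was at a log2 fold change of 6.57 (SE 0.96) per the authors' deposited table, which is 94.8-fold, and ranked 15th of all tested genes from the highest. Fech, the ferrochelatase that inserts the iron, was at 6.09 (SE 1.01) per the authors' deposited table, or 68.2-fold, and ranked 31st. Between these ends the differences were smaller. Alad, which joins aminolevulinate into porphobilinogen, was at 2.52 (SE 0.77) per the authors' deposited table, and Uros, which closes the porphyrin ring, at 2.37 (SE 0.46). Urod, which trims the side chains of uroporphyrinogen, was at 4.34 (SE 0.49) per the authors' deposited table. The oxidases that follow it, Cpox and Ppox, were at 4.40 (SE 0.93) and 4.98 (SE 0.94) per the authors' deposited table. All 7 enzyme differences were several times their SE, the smallest test score being 3.27 for Alad per the authors' deposited table.

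The 4 mitochondrial enzymes Alas2, Cpox, Ppox and Fech lay between 4.40 and 6.57, and the 3 cytosolic ones Alad, Uros and Urod between 2.37 and 4.34. The gap between the groups is far smaller than the error: Cpox exceeded Urod by 0.06, with a 95% interval of -1.996 to 2.11. Intervals of differences between genes take the genes as independent, although all were measured in the same libraries.

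**Figure D1:**
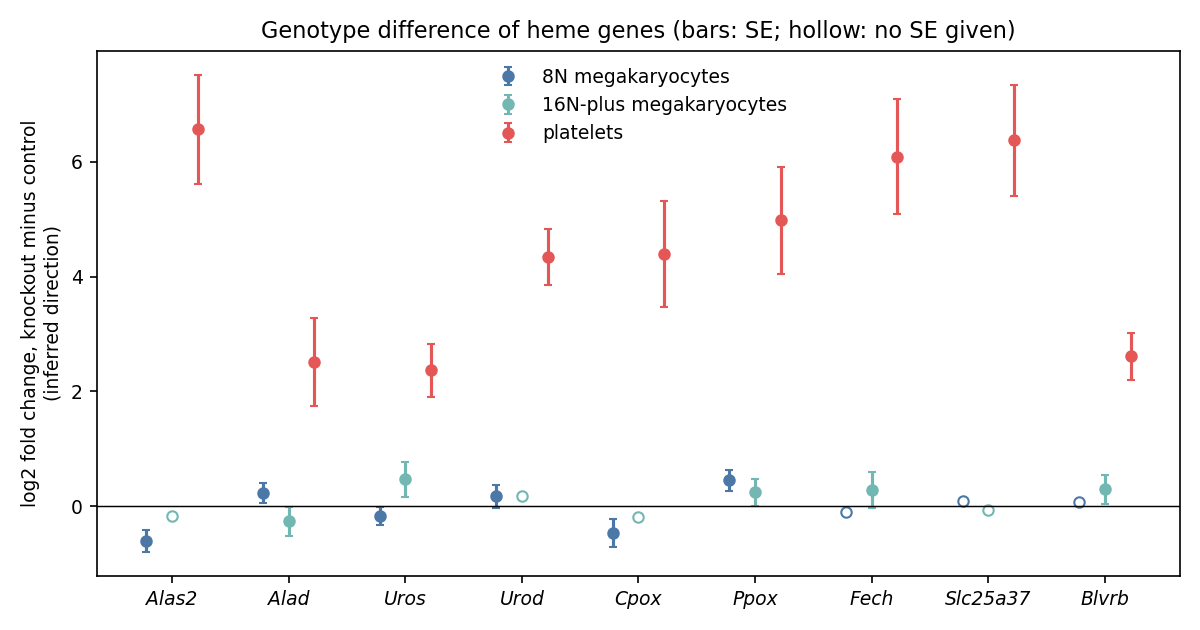
Log2 fold change of knockout minus control (inferred direction) for each of the 9 genes in 8N megakaryocytes, 16N-plus megakaryocytes and platelets, with bars of 1 SE and hollow points where no SE is given. The platelet points lie between 2.37 and 6.57, while the megakaryocyte points lie between -0.61 and 0.46.

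The value of the mitochondrial iron importer lay between those of the last and the first enzyme, within its SE of both. Slc25a37 was at 6.38 (SE 0.97) per the authors' deposited table, or 83.1-fold, 22nd from the highest. Blvrb, which reduces biliverdin and flavins and is abundant in red cells, was at 2.61 (SE 0.41) per the authors' deposited table. The mean normalised count over the platelet libraries was 66052 for Alas2, the 15th highest of the tested genes, 16354 for Slc25a37, the 84th highest, and 1952 for Blvrb. It was 571 for Urod, 398 for Fech and 87.9 for Cpox, and only 28.5 for Alad, 26.2 for Uros and 18.1 for Ppox. These means pool both genotypes and, on an amplicon panel, depend on how well each amplicon works, so the order of genes is not an order of transcript numbers.

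For the first enzyme and for the iron importer the red cell form was further above 0 than its paralogue of wider expression, given here as a description of the platelet values. Alas1 was at 1.84 (SE 0.45) per the authors' deposited table, so that Alas2 exceeded it by 4.73 with an interval of 2.66 to 6.80. Slc25a28, which encodes mitoferrin-2, was at 1.62 (SE 0.54) per the authors' deposited table, and Slc25a37 exceeded it by 4.76 with an interval of 2.58 to 6.93. The interval for the pair of biliverdin reductases included 0. Blvra was at 1.98 (SE 0.45) per the authors' deposited table, and Blvrb exceeded it by 0.63 with an interval of -0.55 to 1.81. In 16N-plus megakaryocytes the same 3 differences between paralogues were 0.11, -0.34 and 0.13, with no interval computed. In 8N cells the order within the pairs of Alas2 and Slc25a37 was the other way. Alas2 was at -0.61 and Alas1 at -0.12, and Slc25a37 at 0.09 and Slc25a28 at -0.10, per the authors' deposited table. Blvrb was at 0.07 and Blvra at -0.01 in 8N cells per the authors' deposited table.

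The platelet SEs of these genes were large for their counts. An SE falls as the mean count rises, and for rows within 2-fold of the mean count of Alas2 its median was 0.20, whereas Alas2 had 0.96. The SE of Slc25a37 exceeded that of 99.3% of rows of like mean count, that of Fech 99.6%, Cpox 98.8%, Ppox 98.5%, Alad 96.5%, Alas2 94.3% and Urod 94.2%. Blvrb stood at 88.8%, and Uros, at 63.4%, lay nearest the middle. In 5 genes, Alas2, Slc25a37, Fech, Cpox and Ppox, the SE lay between 0.93 and 1.01 although their mean counts ran from 18.1 to 66052. Red cell markers stood at the same height, with 0.91 for Slc4a1, 0.95 for Bpgm and 0.97 for Ank1, and 13 of 17 of them lay above the 90th percentile. Of 12 platelet markers 0 did, of 10 macrophage markers 1, of 9 neutrophil markers 3 and of 8 lymphocyte markers 3. Large SEs were thus not confined to red cell genes. At a high count the SE mostly reflects the spread between libraries, and the values of the single libraries are not analysed here.

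**Figure D2:**
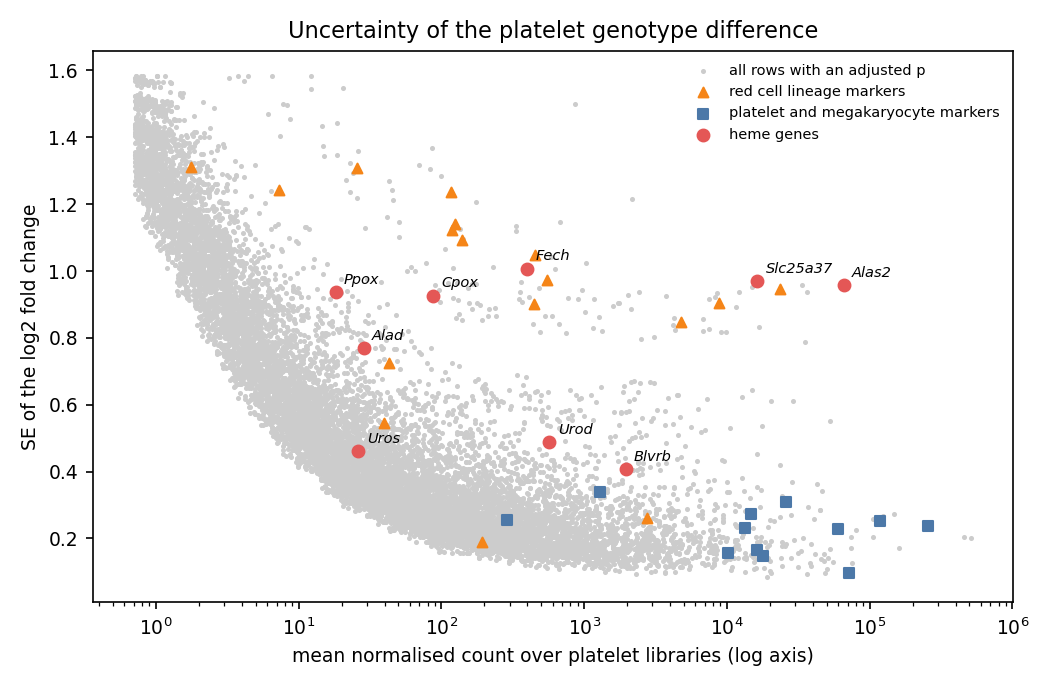
SE of the platelet log2 fold change against the mean normalised count (log axis) for all rows with an adjusted p in grey, with the 9 heme genes, red cell markers and platelet markers coloured. Alas2, Slc25a37, Fech, Cpox and Ppox sit between 0.93 and 1.01, above most rows of like count. Platelet markers sit between 0.098 and 0.34, with a median percentile of 57.8 among rows of like count.

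Red cell markers moved with the heme genes in the same platelet libraries, and their part in the result was not tested. Of 17 red cell lineage markers tested 14 were called higher and 0 lower by the authors' DESeq2 test, with a median of 4.98. The anion exchanger gene Slc4a1 was at 6.49 (SE 0.91) per the authors' deposited table, the bisphosphoglycerate mutase gene Bpgm at 6.45 (SE 0.95), and the blood group genes Kel and Rhd at 6.46 (SE 1.09) and 6.47 (SE 1.24). Epor, the erythropoietin receptor gene, was at 0.21 (SE 0.19) and not called, and neither were Klf1 and Trim58 per the authors' deposited table. No hemoglobin gene of the list has a row among the platelet rows used here. Of 12 platelet markers 10 were called lower and 0 higher, with a median of -1.40. Of 9 neutrophil markers 0 were called by the DESeq2 test and 0 had an unadjusted p under 0.05 (median 0.09), and of 8 lymphocyte markers 0 were called by that test and 0 had an unadjusted p under 0.05 (median -0.62). Of 10 macrophage markers 1 was called higher and 3 lower (median -0.96), beside 28.2% and 25% of all genes.

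With Alas1, the list of synthesis enzymes held 8 genes, of which 8 were called higher in knockout platelets (median 4.37). All but Alas1 are among the genes chosen with this comparison known, so nothing is read from this count. Of 7 genes for mitochondrial iron import, precursor transport and enzyme assembly, among them Slc25a37, 6 were higher and 0 lower (median 1.66). Over all genes 28.2% were called higher and 25% lower. Fam210b, which supports iron import in red cell precursors, was at 4.56 (SE 0.59) per the authors' deposited table, and the inner membrane transporter gene Abcb10 was at 4.39 (SE 0.51). Clpx, a mitochondrial unfoldase that activates ALAS, was at -0.19 (SE 0.34) and not called per the authors' deposited table.

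Of 10 genes of cellular iron handling tested, 4 were higher and 2 lower (median 1.18), near the shares over all genes of 28.2% higher and 25% lower. Tfrc, the transferrin receptor gene, was at 3.78 (SE 0.89) per the authors' deposited table, Aco1, which encodes the iron regulatory protein IRP1, at 2.07 (SE 0.24) and the iron transporter gene Slc11a2 at 1.42 (SE 0.51). The iron chaperone gene Pcbp2 was at -1.05 (SE 0.12) per the authors' deposited table. Of 6 genes of heme breakdown and transport 4 were higher and 1 lower (median 2.30), among them the heme transporter genes Slc48a1, at 4.29 (SE 0.80), and Abcg2, at 2.90 (SE 0.48), per the authors' deposited table. Hmox1, the inducible heme oxygenase gene, was at -1.09 (SE 0.76) and not called per the authors' deposited table.

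**Figure D3:**
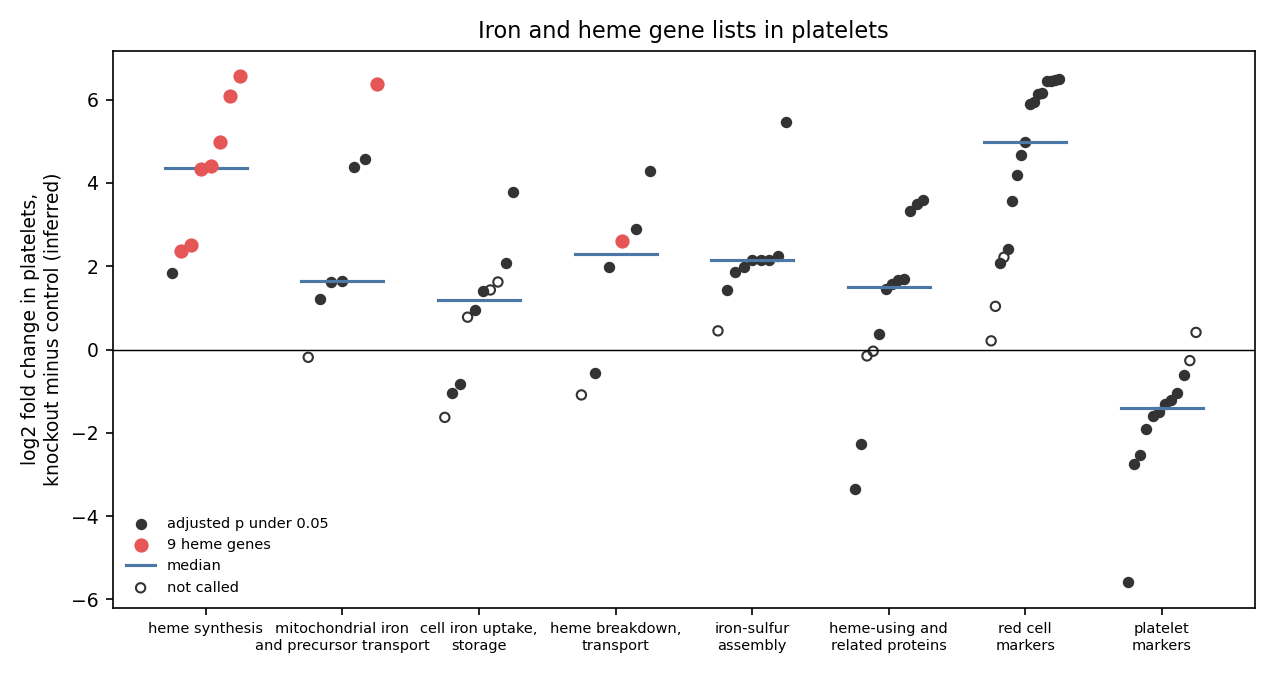
Platelet log2 fold change of knockout minus control (inferred direction) for each tested gene of 6 iron and heme lists, red cell markers and platelet markers, with filled points where the adjusted p is under 0.05 a line at each median and the 9 heme genes in red. The heme synthesis list has its median at 4.37, near that of the red cell markers at 4.98, and the platelet markers have theirs at -1.40.

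In megakaryocytes none of the 9 genes was called between genotypes. In 8N cells the authors' edgeR test called 0 of 9, where 1.44% of 9326 genes were called (0.3% higher, 1.14% lower) and 8.15% had an unadjusted p under 0.05, and 3 of the 9 had an unadjusted p under 0.05. Alas2 was the nearest to a call, at -0.61 (SE 0.19; edgeR adjusted p = 0.073) per the authors' deposited table, a sign opposite to that in platelets. Cpox was at -0.47 (SE 0.24; edgeR adjusted p = 0.61) and Ppox at 0.45 (SE 0.18; edgeR adjusted p = 0.33) per the authors' deposited table. The other 6 genes lay between -0.17 and 0.23.

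In 16N-plus cells the authors' edgeR test again called 0 of 9, where 3.51% of genes were called (0.386% higher, 3.12% lower) and 12% had an unadjusted p under 0.05, and 0 of the 9 had an unadjusted p under 0.05. Alas2 was at -0.18 and Slc25a37 at -0.07 per the authors' deposited table, both without an SE here because F was not above 0.5. Uros was at 0.46 (SE 0.31), Blvrb at 0.29 (SE 0.26), Fech at 0.28 (SE 0.31) and Ppox at 0.24 (SE 0.23) per the authors' deposited table. Alad was at -0.26 (SE 0.25), Urod at 0.18 and Cpox at -0.19 per the authors' deposited table, Urod and Cpox without an SE for the same reason. The medians of the 9 genes were 0.07 in 8N and 0.18 in 16N-plus cells, beside 0.01 and 0.07 over all genes.

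With ploidies combined, 0 of 9 genes were called by the edgeR test, where 4.19% of genes were (0.622% higher, 3.57% lower) and 13.6% had an unadjusted p under 0.05, and 2 of the 9 had an unadjusted p under 0.05. These were Alas2, at -0.39 (SE 0.15; edgeR adjusted p = 0.13), and Ppox, at 0.35 (SE 0.15; edgeR adjusted p = 0.23), per the authors' deposited table. After centring on the median gene Alas2 passed, at -0.44 with an adjusted p of 0.049 computed from the authors' edgeR log2 fold change and SE with a normal approximation.

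Platelet and megakaryocyte intervals are set side by side as a description, since the genes were chosen with the platelet values known. For the 6 genes with an SE in 8N cells, 6 platelet 95% intervals lay wholly above the megakaryocyte interval. For the 5 genes with an SE in 16N-plus cells 5 did. The share of all genes with intervals apart in this way was not computed, so nothing is read from these counts. Slc25a37 has no megakaryocyte interval at either ploidy. For Uros, the closest case, the upper bound in 16N-plus cells was 1.07 and the lower bound in platelets 1.47. The cell types were measured by different assays, a total RNA library for megakaryocytes and an amplicon panel for platelets, so assay and cell type cannot be told apart.

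Among red cell membrane genes in megakaryocytes, Slc4a1 was lower in knockout 8N cells, at -1.09 (SE 0.19; edgeR adjusted p = 5.7e-06), and in knockout 16N-plus cells, at -1.12 (SE 0.24; edgeR adjusted p = 0.00032), per the authors' deposited tables. Ank1, the red cell ankyrin gene, was lower in 8N cells, at -0.77 (SE 0.19; edgeR adjusted p = 0.0060) per the authors' deposited table. Of 16 red cell markers tested 2 were lower in 8N and 1 in 16N-plus cells, and 0 were higher, with medians of -0.26 and -0.23. Over all genes 1.14% were lower in 8N and 3.12% in 16N-plus cells, so that 1 of 16 is near the share over all genes. With ploidies combined 3 of 16 were called lower and 0 higher, beside 3.57% of all genes lower. The median was then -0.28, and 0 of the 16 lay above 0. The alpha and beta globin genes Hba-a1 and Hbb-bs were not called, at -0.23 (SE 0.20) and -0.17 (SE 0.19) in 8N cells per the authors' deposited table. Globin genes have near-identical copies that can share reads.

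The ploidy step left the 9 genes uncalled in both genotypes. In controls the edgeR test called 0 of 9, where 7.25% of genes were called (4.74% higher, 2.51% lower) and 17.8% had an unadjusted p under 0.05, and 0 of the 9 had an unadjusted p under 0.05. The values ran from -0.54 (Cpox, SE 0.29) to 0.18 (Alad, SE 0.24) per the authors' deposited table. In knockouts it called 0 of 9, where 3.31% of genes were called (2.1% higher, 1.21% lower) and 13.6% had an unadjusted p under 0.05, and 1 of the 9 had an unadjusted p under 0.05. That gene was Alas2, at 0.46 (SE 0.19; edgeR adjusted p = 0.20), and Slc25a37 was at -0.47 (SE 0.24) per the authors' deposited table. For none of the 9 did the effect of genotype pass a test of its difference between ploidies. The approximate interaction test called 0 of 9, where 0.731% of 9305 genes were called (0.172% higher, 0.559% lower) and 7.85% had an unadjusted p under 0.05. Of the 9 genes 0 had an unadjusted p under 0.05, and the lowest adjusted p on the authors' edgeR values was 0.70, for Uros. Only 3 of the 9, Alad, Uros and Ppox, had an F above 0.5 at both ploidies. For the others the test rested on SEs from a lower F, which are not given here, so little can be read from their lack of a call.

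**Figure D4:**
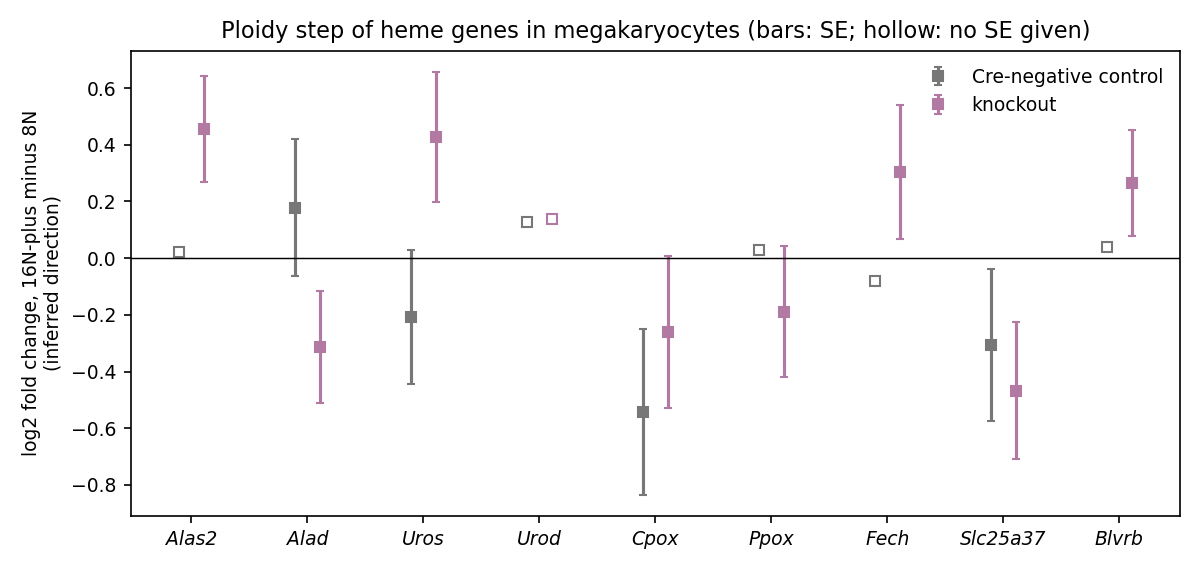
Log2 fold change of 16N-plus minus 8N megakaryocytes (inferred direction) for each of the 9 genes in controls and knockouts, with bars of 1 SE and hollow points where no SE is given. All points lie between -0.54 and 0.46, and those of Cpox and Slc25a37 are below 0 in both genotypes.

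Other iron and heme genes did change with ploidy. Slc40a1, the iron exporter ferroportin, was lower in 16N-plus cells, at -1.91 (SE 0.26) in controls and -0.93 (SE 0.21) in knockouts per the authors' deposited tables. Hmox1 was lower in both too, at -1.25 (SE 0.26) and -1.24 (SE 0.21) per the authors' deposited tables. Both are abundant in the marrow macrophages that recycle heme iron, and macrophage markers moved with them. Of 12 such markers 9 were lower in controls and 6 in knockouts, with medians of -1.18 and -0.83, and their part in the result was not tested. The ferritin heavy chain gene Fth1, whose processed pseudogenes can share its reads, was higher with ploidy in controls, at 0.74 (SE 0.24) per the authors' deposited table. Between genotypes, Hmox1 was lower in the knockout with ploidies combined, at -0.60 (SE 0.17; edgeR adjusted p = 0.014) per the authors' deposited table.

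Levels in megakaryocytes were compared per length, as the mean log2 CPM over the libraries less the log2 of the annotated exon length in kilobases. On this scale Urod was highest at 5.67, followed by Alas2 at 4.75, Alad at 4.34, Blvrb at 4.11, Cpox at 3.65 and Slc25a37 at 3.57. Uros was at 3.06, Ppox at 2.86 and Fech at 2.38, and Fech has 13838 annotated exon bases, the most of the 9. No spread over libraries comes with these means, so neighbours in the order cannot be told apart. Alas1 was at 4.06 on this scale. The genes lie apart in the genome (GRCm38): Alas2 at X:150547375-150570638, Alad at 4:62509169-62519918, Uros at 7:133686243-133710072, Urod at 4:116989965-116994413, Cpox at 16:58670292-58717636, Ppox at 1:171275990-171281186, Slc25a37 at 14:69241848-69285112 and Blvrb at 7:27447978-27466144, while Fech is on chromosome 18.

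The genes most like Alas2 over 4 log2 fold changes (genotype in 8N, in 16N-plus and in platelets, and the control ploidy step) were Hebp1, a heme-binding protein gene, at a distance of 0.54, Cdr2 at 0.55 and Fam220a at 0.59, among 8372 genes with all values. For Slc25a37 they were Hagh, a glyoxalase gene, at 0.28, Fam220a at 0.36 and Hebp1 at 0.39. For Fech they were Hist1h4a at 0.24, Ube2l6 at 0.28 and Hagh at 0.30. These neighbours had platelet log2 fold changes between 5.97 and 6.57 per the authors' deposited table. That value entered the distance, so this closeness follows from how they were chosen. In 8N cells the neighbours of Alas2 were at -0.20, -0.20 and -0.07, against -0.61 for Alas2, per the authors' deposited table.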

How the data were processed

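RNA was measured in 12 megakaryocyte and 10 platelet samples. The labels' protocols give a low-input stranded kit for total RNA and Illumina reads for megakaryocytes, and an AmpliSeq amplicon panel on 10 ng of RNA with Ion Proton reads for platelets. Per the submitters' processing notes, the tools were STAR, Trimmomatic, featureCounts of Subread, Picard, DESeq2 and edgeR, with build mm10. Roles and versions are not given in the sources used here.

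Per the file headers, the authors' 5 megakaryocyte tables hold a deposited log2 fold change, a mean log2 CPM, an F (a test score) and p-values before and after adjustment for the same 9326 genes, with a lowest mean log2 CPM of 4.23. The deposited platelet table has 23930 rows with a signal (the mean normalised count), a log2 fold change, its SE as a score, its test statistic and p-values, with an adjusted one in 12611 rows. Which platelet controls entered is not stated. Depth per library is unknown. Symbols were found for 9300 of 9326 Ensembl IDs. Whether replicates are separate animals is not in the labels, so p-values measure the spread between these samples, which may be technical. The strain labels of the platelet samples count up from sample to sample and were not used.

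Genes were called at a deposited adjusted p under 0.05. For megakaryocytes the SE is the absolute log2 fold change divided by the root of F, given where F is above 0.5. Intervals are 95% normal intervals from the SE. The genotype difference between ploidies was divided by the root of the summed squared SEs (normal approximation, Benjamini-Hochberg over all genes). SEs from an F of 0.5 or less entered it too. This test takes both gates as independent. It was run on simulated data for genes with F above 0.5 in both tables, with independence and the SEs built in. The planted differences were larger than those of the 9 genes, so the simulation bears neither on these assumptions nor on smaller differences. The differences between genotype tables equal those between ploidy tables to rounding, which ties the megakaryocyte signs together. Python 3.11.15, pandas 2.3.3 and scipy 1.17.1 were used. The 9 genes and all lists were chosen with earlier results of these data known, and some genes of the lists are not reported here and were left out of the list counts. The text names all 9 genes, their paralogues and Srsf3. It also names genes from among the up to 4 called genes of the largest change per list and comparison, but not all of these. Klf1, Trim58, Clpx, Epor and the globin genes were added after their values were seen, as were Hmox1 and Cat in platelets. Hscb was named outside this rule too, as were Ank1 and Cyb5a in platelets.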

Additional observations from a re-analysis of the deposited data

How the results depend on the processing

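In platelets all 9 heme genes stayed called higher after centring on the median gene, at an adjusted p under 0.01, without a filter on low values and at a mean normalised count of 10 or more. In megakaryocytes 0 of the 9 was called under any alternative except Alas2 in the combined table, where centring gave 1 gene called lower. Centring turned the sign of 3 uncalled values near 0: Fech in the control ploidy step (0.027), Slc25a37 in the combined table (-0.038) and Urod in the difference between ploidies (-0.039). It moved all genes called lower to 135 in the control ploidy step and to 516 in the combined table. An adjusted p under 0.01 left 405 genes in the control ploidy step (84 lower), 176 in the knockout ploidy step (115 higher, 61 lower), 81 in 8N cells (18 higher, 63 lower), 9 higher in 16N-plus cells, and 259 in the combined table (12 higher). Restricting the difference between ploidies to genes with F above 0.5 in both tables, an alternative chosen after seeing the data, gave 31 genes called higher. It held 3 of the heme genes, Alad, Uros and Ppox, and called 0 of these 3. No paired analysis was possible because the tables hold no values per library, and leaving out replicates was not run for the same reason. Depth per library is unknown, and the SEs near 1 set how precisely Alas2, Slc25a37, Fech, Cpox and Ppox are known in platelets.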

Other observations

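Of 9 iron-sulfur cluster assembly genes tested in platelets 8 were called higher in the knockout and 0 lower by the authors' DESeq2 test (median 2.14), against 28.2% of all genes called higher. Bola3, which hands clusters to mitochondrial enzymes, was at 5.45 (SE 0.84), the mitochondrial chaperone gene Hspa9 at 2.25 (SE 0.21) and the cysteine desulfurase gene Nfs1 at 2.16 (SE 0.55) per the authors' deposited table. The SE exceeded that of 97.9% of rows of like mean count for Bola3, 94.6% for Hscb and 26.2% for Hspa9, and 2 of the 9 genes lay above the 90th percentile.

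Of 12 respiratory chain and other heme-related genes tested in platelets 8 were higher and 2 lower, beside 28.2% and 25% of all genes. Cyc1, the cytochrome c1 gene, was at 3.32 (SE 0.25), Uqcrc1, a core subunit of the same complex, at 3.59 (SE 0.28) and Cox10, whose product starts the conversion of heme to heme a, at 3.50 (SE 0.50) per the authors' deposited table. Ptgs1, the heme-containing cyclooxygenase of platelets, was at -3.35 (SE 0.14) and the cytochrome b5 gene Cyb5a at -2.26 (SE 0.21) per the authors' deposited table. Ptgs1 was also lower in knockout megakaryocytes with ploidies combined, at -0.67 (SE 0.18; edgeR adjusted p = 0.0095), as was Cat, the heme enzyme catalase, at -0.53 (SE 0.15; edgeR adjusted p = 0.014), per the authors' deposited table. In platelets Cat was at -0.04 (SE 0.49) and not called per the authors' deposited table. With ploidy in controls, Cat (0.92, SE 0.22), Tbxas1, the thromboxane synthase gene (0.88, SE 0.27), Cyb5a (0.79, SE 0.24) and the iron-sulfur assembly gene Isca1 (0.88, SE 0.23) were higher per the authors' deposited table.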
